A study of Mus musculus with 5 samples.

Results

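The genes described here encode the 4 large superfamilies of enzymes that metabolize drugs and toxins: cytochromes P450 of families 1 to 4, glutathione S-transferases (GST), UDP-glucuronosyltransferases (UGT) and cytosolic sulfotransferases. They were taken by symbol (those beginning with Cyp1 to Cyp4, Gst of the alpha, kappa, mu, omega, pi and theta classes, Ugt1, Ugt2 and Sult) among the protein-coding genes of an RNA-seq table. Members were selected on their count summed over the table's 4 libraries, which had to be at least 40. Of 143 such symbols 62 met this minimum, among 52029 genes in the table: 24 of 81 P450s, 20 of 22 GSTs, 11 of 19 UGTs and 7 of 21 sulfotransferases. Just inside the minimum were Cyp2c55 with a summed count of 44, Cyp4f40 with 46 and Sult6b1 with 50. Just outside it were Cyp2r1 with 35, Cyp2j9 with 29 and Ugt2b38 with 25.95.

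In the liver, P450s oxidize drugs, steroids and fatty acids with electrons supplied by P450 reductase, and the other 3 superfamilies attach glutathione, glucuronic acid or sulfate, after which the products can be exported. Hepatocytes carry most of this activity, whereas bile duct cells are known chiefly for GSTs. Many of these genes are switched on by ligand-activated receptors, such as AHR for Cyp1a1 and Cyp1b1, or by the oxidant-responsive factor NRF2.

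The samples were hepatobiliary organoids, three-dimensional epithelial cultures, grown from wild-type mouse primary liver stem/progenitor cells. There were 3 libraries of organoids co-cultured with LiECs (liver endothelial cells) at passage 8 and 2 libraries of organoids alone at passage 1. Both groups were kept for 10 days in one medium that held EGF, nicotinamide, heparin, ECGS, serum replacement and the ROCK inhibitor Y-27632. Passage and co-culture cannot be told apart, so each difference given is one between co-cultures at passage 8 and organoids alone at passage 1.

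Total counts were 33881617 and 35878241 in co-culture libraries M9 and M10, against 26466739 and 29195328 in M11 and M12, which are the organoids alone. A further library of the co-culture group (the third) was deposited separately, used other gene models and had 58853737 counts. No label says whether the libraries of a group are separate cultures, so the p-values reflect the spread among these libraries alone, and that spread may be technical. In bulk RNA, fewer cells of a type and less RNA per cell cannot be told apart. The 12 endothelial markers summed to 10.3 and 9.78 CPM in M9 and M10 and 7.17 in the third library, against 8.20 and 8.15 in M11 and M12, mostly from Egfl7. The defining endothelial gene Pecam1 had 2 and 2 counts in M9 and M10 and 10 in the third library, against 1 and 2 in M11 and M12, and Clec4g of the liver sinusoids was at 0 in all 5. All 10 cholangiocyte and progenitor markers had at least 10 counts in each of the 5 libraries. The Y-linked Kdm5d had 1408 and 1716 counts in M9 and M10 and 1321 in the third library, against 1171 and 877 in M11 and M12.

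The promoters of 4 members are shown, because they differ in motifs of the regulators named above and belong to genes whose values are compared below. Each runs from 250 bases before to 50 bases after the RefSeq gene start (GRCm38.p6). Capitals mark the AHR-binding core GCGTG or the NRF2-binding core TGACNNNGC, each searched on both strands, so that CACGC is the first of these read from the opposite strand. Cyp1a1 is at chr9:57697363-57697662 on the plus strand, Cyp1b1 at chr17:79715012-79715311 on the minus strand, Gsta3 at chr1:21240335-21240634 on the plus strand and Cyp2s1 at chr7:25816476-25816775 on the minus strand.
Cyp1a1: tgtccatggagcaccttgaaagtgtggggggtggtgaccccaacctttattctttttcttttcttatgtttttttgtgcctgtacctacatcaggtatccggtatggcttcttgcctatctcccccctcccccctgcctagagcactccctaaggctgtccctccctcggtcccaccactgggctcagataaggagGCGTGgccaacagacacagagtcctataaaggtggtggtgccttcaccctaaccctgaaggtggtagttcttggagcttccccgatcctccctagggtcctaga
Cyp1b1: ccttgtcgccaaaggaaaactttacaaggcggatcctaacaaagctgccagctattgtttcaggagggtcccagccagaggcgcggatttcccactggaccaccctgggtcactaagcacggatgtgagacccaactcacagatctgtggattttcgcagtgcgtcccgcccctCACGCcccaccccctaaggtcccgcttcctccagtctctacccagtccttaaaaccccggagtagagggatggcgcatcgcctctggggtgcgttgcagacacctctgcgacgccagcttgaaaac
Gsta3: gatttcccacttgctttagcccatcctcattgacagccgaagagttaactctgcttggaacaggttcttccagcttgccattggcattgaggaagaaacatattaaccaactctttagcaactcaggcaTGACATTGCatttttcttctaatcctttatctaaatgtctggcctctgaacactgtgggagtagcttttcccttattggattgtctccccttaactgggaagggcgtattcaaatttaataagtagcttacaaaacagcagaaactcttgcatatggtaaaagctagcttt
Cyp2s1: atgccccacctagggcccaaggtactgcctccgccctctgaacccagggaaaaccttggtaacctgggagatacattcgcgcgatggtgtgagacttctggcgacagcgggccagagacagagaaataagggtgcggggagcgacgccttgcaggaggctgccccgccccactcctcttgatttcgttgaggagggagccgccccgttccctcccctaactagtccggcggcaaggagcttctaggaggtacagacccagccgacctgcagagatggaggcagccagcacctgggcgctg
Cyp1a1 and Cyp1b1 each held 1 GCGTG core and Gsta3 held 1 TGACNNNGC core, whereas neither was found in this window of Cyp2s1. Of all 32817 promoters of this length, 32.4% held GCGTG and 12.4% held TGACNNNGC. Of 64 promoters found for 51 of the 62 members, 28.1% and 9.38% held them. A match describes the letters of the window and does not show binding.

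GSTs made up most of the summed level of these enzymes in every library of the shared table. Levels are compared between genes as CPM per kilobase, that is counts scaled to library size (CPM) and divided by the kilobases of GENCODE exon. On this scale the GST members summed to 1457 and 1451 in M9 and M10 and 1227 and 1364 in M11 and M12. The P450 members summed to 91.05 and 124.1 in M9 and M10 and 70.6 and 91.3 in M11 and M12, the UGT members to 119.5 and 90.5 in M9 and M10 and 97.1 and 109.4 in M11 and M12 and the sulfotransferases to 30.5 and 19.5 in M9 and M10 and 16.05 and 18.1 in M11 and M12. The GST sum was above that of each other superfamily in all 4 libraries.

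Several enzymes typical of adult hepatocytes fell below the minimum, although others, such as Gstm1, met it. Those named here were picked out after their values were seen. Cyp2e1, which oxidizes ethanol, had 0 and 3 counts in M9 and M10 and 1 and 0 in M11 and M12. Cyp3a11, a main hepatic drug-oxidizing P450 of mice, had 1 and 0 counts in M9 and M10 and 0 and 3 in M11 and M12, and both genes had 0 in the third co-culture library. Cyp1a2, an AHR-driven P450 of hepatocytes, had 0 and 1.01 counts in M9 and M10 and 3 and 6.07 in M11 and M12, but 330 in the third co-culture library. Of the 81 symbols below the minimum, 33 were at 0 in all 4 libraries of the shared table. Of the 79 that could be joined to the third co-culture library by symbol, 12 had 40 or more counts there.

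**Figure D1:**
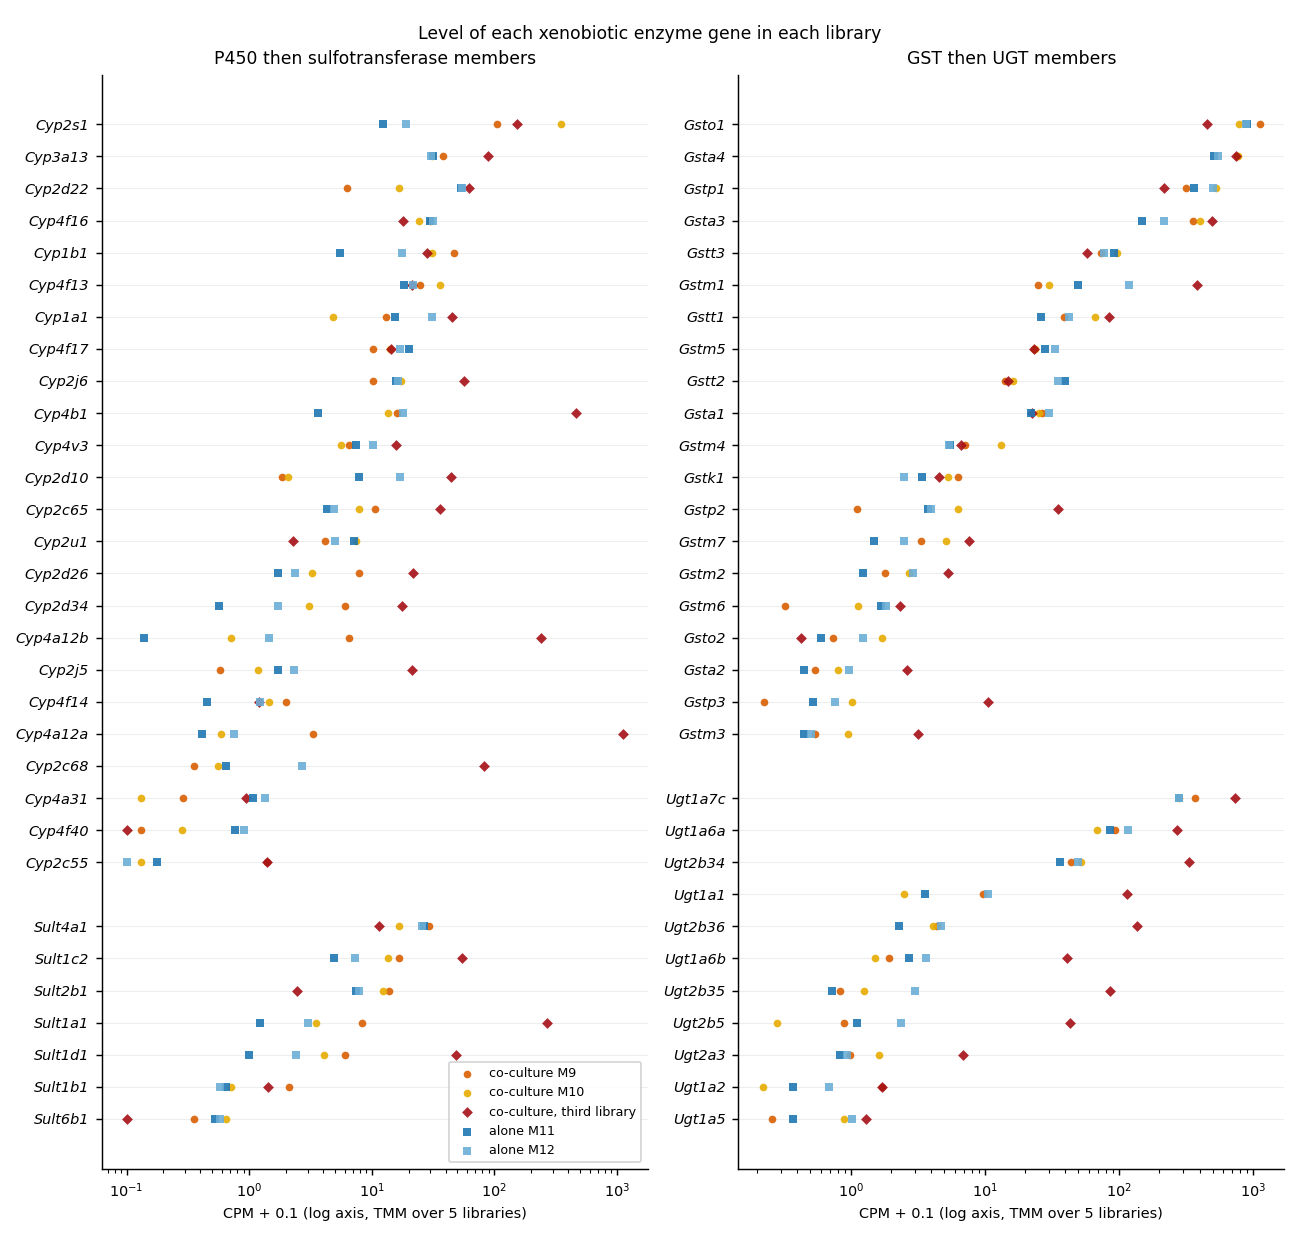
Each row is one of the 62 members and each point one library, placed by CPM + 0.1 on a log axis with scaling over all 5 libraries. The third co-culture library (diamonds) lay above the other 4 libraries for 38 members, with Cyp4a12a at 1119 CPM.

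In M9 and M10 against the organoids alone, 1 member rose and 1 fell. Cyp2s1, a P450 of epithelia outside the liver that dioxin can induce, rose, and Gstt2, a theta-class GST, fell. By edgeR's quasi-likelihood test at a Benjamini-Hochberg adjusted p of 0.05, 2.24% of 15899 genes were called, 0.994% higher and 1.25% lower. Of the 62 members 61 passed the low-count filter, and the 2 called are 3.28% of these. The members' fold change was positive for 31 and negative for 30, with a median of 0.08 on the log2 scale, beside 0.00058 over all genes tested. Members with few counts can pass the minimum through 1 group, so these counts are a description. All adjusted p-values below are from edgeR unless another tool is named, and ± gives the standard error.

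Cyp2s1 was at 98.2 and 325.5 CPM in M9 and M10 against 11.6 and 17.8 CPM in M11 and M12, where CPM are TMM-scaled. Both co-culture libraries were above both libraries of organoids alone, and M10 was well above M9. The log2 fold change was 3.85 ± 0.61 (adjusted p = 0.0435, edgeR). The gene (ENSMUSG00000040703) extends over chromosome 7 positions 25802475 to 25816913, minus strand, in GRCm38. The third co-culture library had a log2 difference of 3.32 from the average of M11 and M12, so the gene was high in all 3 co-culture libraries. The call was lost without M11 (adjusted p = 0.231), without M12 (0.227), without a low-count filter (0.368), with all 5 libraries (0.208) and in limma-voom (0.0782). The log2 fold change was 4.48 without M9 and 2.75 without M10.

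Gstt2 was at 13.2 and 15.2 CPM in M9 and M10 against 37.3 and 32.7 CPM in M11 and M12, and the groups did not overlap. Its log2 fold change was -1.30 ± 0.20 (adjusted p = 0.0416, edgeR), and the third co-culture library showed a log2 difference of -1.33. The gene (ENSMUSG00000033318) extends over chromosome 10 positions 75831114 to 75837424, minus strand. DESeq2 and limma-voom also called it. The call was lost without M11 (adjusted p = 0.298), without M12 (0.274) and with all 5 libraries (0.194). The theta-class members Gstt1 and Gstt3, picked out after their values were seen, did not pass. Gstt1 was at 36.4 and 62.2 CPM in M9 and M10 against 24.9 and 39.9 CPM in M11 and M12 (log2 fold change 0.60 ± 0.34, adjusted p = 0.446). Gstt3 was at 69.03 and 89.6 CPM in M9 and M10 against 86.8 and 72.4 CPM in M11 and M12 (log2 fold change -0.0047 ± 0.19, adjusted p = 0.995). In both the groups overlapped, and the difference between Gstt2 and these genes was not tested.

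**Figure D2:**
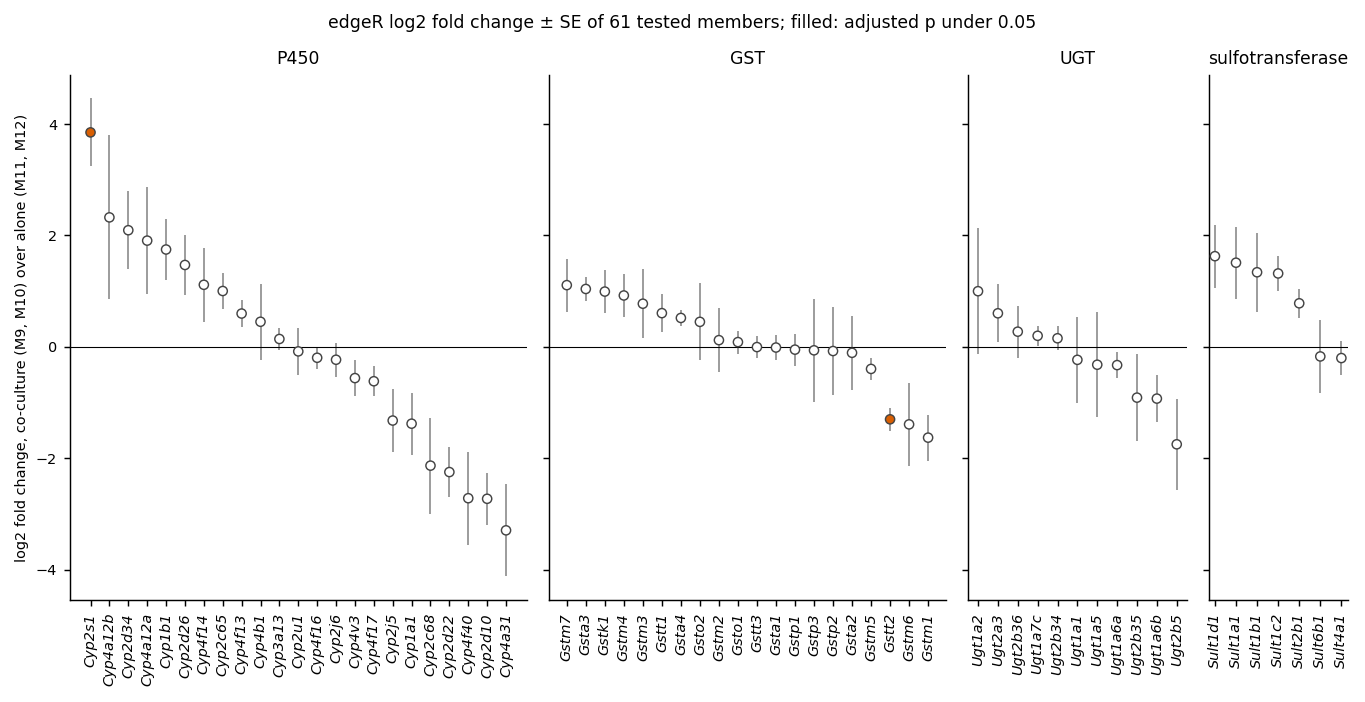
Log2 fold change of M9 and M10 over M11 and M12 with its standard error (edgeR) for the 61 tested members, by superfamily; filled points passed an adjusted p of 0.05. The filled points are Cyp2s1 at 3.85 and Gstt2 at -1.30, and the P450s spread the widest.

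Of the 23 P450s tested, 1 rose, none fell and 22 did not pass in edgeR, while the calls were 3 higher and 2 lower in DESeq2 and 0 higher and 0 lower in limma-voom. Of all 23, Cyp2s1 included, 11 had an unadjusted p under 0.05, or 47.8%, beside 17.5% of all genes. M9 and M10 both lay above M11 and M12 for 7 P450s, or 30.4%, beside 24.3% of all genes. They lay below for 10, or 43.5%, beside 25.1%.

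Members of the Cyp2d cluster, relatives of the human drug-oxidizing CYP2D6, had fold changes of either sign. Cyp2d22 was at 5.79 and 15.5 CPM in M9 and M10 against 50.8 and 50.6 CPM in M11 and M12 (log2 fold change -2.25 ± 0.45, adjusted p = 0.0767). Cyp2d10 was at 1.63 and 1.86 CPM in M9 and M10 against 7.34 and 15.8 CPM in M11 and M12 (log2 fold change -2.73 ± 0.47, adjusted p = 0.0523). For both genes the groups did not overlap and the test was missed. DESeq2 called both lower (adjusted p = 7.12e-06 for Cyp2d22 and 4.33e-07 for Cyp2d10), and so did edgeR without M9 and without M10 and, for Cyp2d10, without a low-count filter. Without M9 the log2 fold change of Cyp2d22 was -1.70, and without M10 it was -3.13. That of Cyp2d10 was -2.07 without M12. Cyp2d26 and Cyp2d34, picked out after their values were seen, had positive fold changes. Cyp2d26 was at 7.24 and 2.94 CPM in M9 and M10 against 1.54 and 2.13 CPM in M11 and M12 (log2 fold change 1.47 ± 0.55, adjusted p = 0.249). Cyp2d34 was at 5.58 and 2.80 CPM in M9 and M10 against 0.441 and 1.51 CPM in M11 and M12 (log2 fold change 2.09 ± 0.70, adjusted p = 0.208). DESeq2 called Cyp2d34 higher (adjusted p = 0.0346), as did edgeR without a low-count filter (0.0156), and edgeR called Cyp2d26 higher without M10 (0.0192). Reads can be split between such close copies, so single values are uncertain. Summed over 8 Cyp2d genes, a choice made after the data were seen, the counts were at 20.4 and 23.2 CPM in M9 and M10 against 60.4 and 70.5 CPM in M11 and M12 and were called lower (log2 fold change -1.59 ± 0.18, adjusted p = 0.0214). The third library differed in the opposite direction, without a test: on the scale of 5 libraries the sum was at 149.8 CPM in the third library and 21.8 and 24.8 CPM in M9 and M10, against 64.01 and 75.3 CPM in M11 and M12.

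The AHR targets of family 1 had fold changes of opposite sign, and neither passed in edgeR. Cyp1b1, which hydroxylates estrogens and polycyclic hydrocarbons, was at 43.5 and 29.1 CPM in M9 and M10 against 5.14 and 16.4 CPM in M11 and M12 (log2 fold change 1.75 ± 0.55, adjusted p = 0.185). Cyp1a1, which oxidizes aromatic hydrocarbons and was picked out after its values were seen, was at 12.2 and 4.43 CPM in M9 and M10 against 14.5 and 28.8 CPM in M11 and M12 (log2 fold change -1.38 ± 0.56, adjusted p = 0.283). The groups did not overlap for either gene. With 1 library left out, the log2 fold change of Cyp1b1 lay between 1.15 (without M11) and 2.82 (without M12). DESeq2 called Cyp1b1 higher (adjusted p = 0.00595), and edgeR called Cyp1a1 lower without M9 (log2 fold change -2.27, adjusted p = 0.0345). In the third co-culture library Cyp1b1 had a log2 difference of 1.51 and Cyp1a1 one of 1.06. The difference between these genes was not tested.

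Other P450s of note by level or p were Cyp4f16 and Cyp4a31 of family 4, which hydroxylates fatty acids, and Cyp3a13 of gut and liver. Cyp4f16 was at 27.7 and 22.7 CPM in M9 and M10 against 28.3 and 29.4 CPM in M11 and M12 (log2 fold change -0.20 ± 0.20, adjusted p = 0.684). Cyp3a13 was at 35.4 and 28.97 CPM in M9 and M10 against 29.8 and 28.6 CPM in M11 and M12, and the groups overlapped (log2 fold change 0.14 ± 0.19, adjusted p = 0.775). Cyp4a31 had few reads, at 0.178 and 0.0286 CPM in M9 and M10 against 0.918 and 1.17 CPM in M11 and M12 (log2 fold change -3.30 ± 0.83, adjusted p = 0.121). Its log2 fold change was -4.99 without M9, where edgeR called it lower (adjusted p = 0.0158), as it did without a low-count filter (0.00818). Cyp4f40 had 1 and 6 counts in M9 and M10 and 17 and 22 in M11 and M12, and 0 in the third co-culture library (log2 fold change -2.72 ± 0.84, adjusted p = 0.181). Its log2 fold change was -4.35 without M10 and -1.97 without M9. Cyp2c55 did not pass the low-count filter, with 41 and 1 counts in M9 and M10 and 2 and 0 in M11 and M12. It met the count minimum through M9 alone, and M10 was within the range of the organoids alone, so no fold is given. The third co-culture library had 77 counts of Cyp2c55, or 1.31 CPM beside 1.30 in M9 on the scale of 5 libraries.

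The makeup of the P450 set is given as a description, without a test. Cyp2s1 took 21.7% and 51.8% in M9 and M10, against 3.41% and 3.94% in M11 and M12 of the summed P450 level per kilobase. Cyp2d22 took 1.62% and 3.12% in M9 and M10, against 18.95% and 14.2% in M11 and M12, and led the set in M11 and M12. Cyp3a13 took 13.1% and 7.71% in M9 and M10, against 14.7% and 10.6% in M11 and M12. A high share of one gene lowers the shares of the others, since they are parts of one sum.

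**Figure D3:**
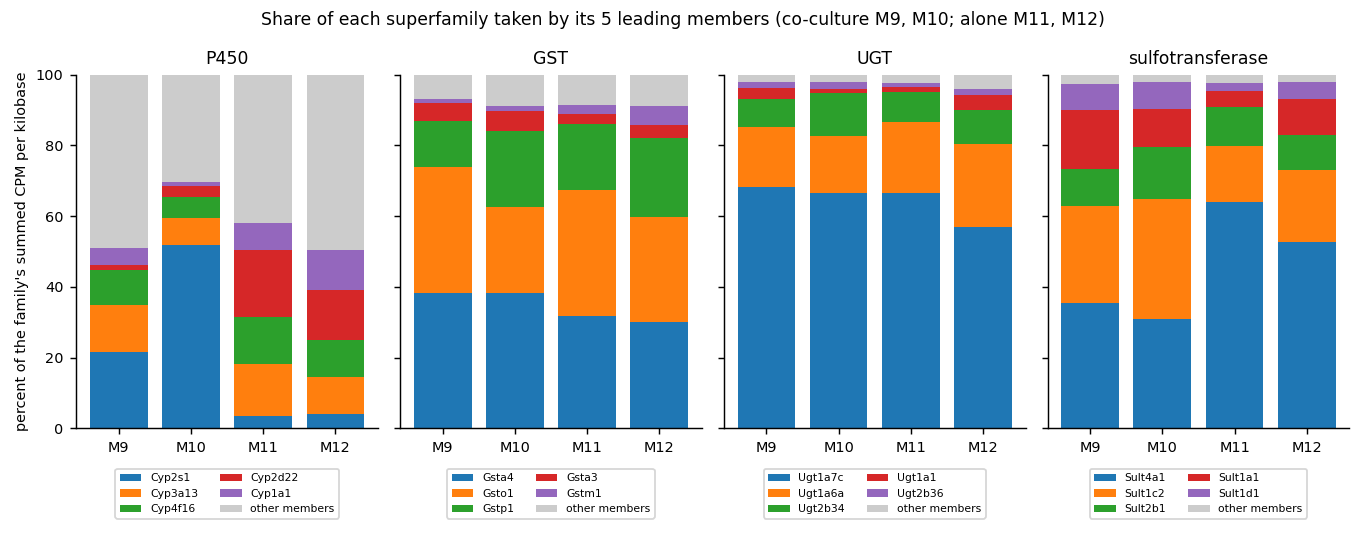
Stacked bars give the percent of each superfamily's summed CPM per kilobase taken by its 5 leading members, in the co-culture libraries M9 and M10 and in M11 and M12 of organoids alone. Cyp2s1 takes 21.7% and 51.8% in M9 and M10, against 3.41% and 3.94% in M11 and M12, while Ugt1a7c leads the UGTs in all 4 libraries.

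Of the 20 GSTs tested, 1 fell, none rose and 19 did not pass in edgeR, while the calls were 1 higher and 2 lower in DESeq2 and 0 higher and 1 lower in limma-voom. The alpha-class enzymes Gsta3, which in mice detoxifies aflatoxin epoxide, and Gsta4, which removes lipid aldehydes, had positive fold changes that did not pass in edgeR. Gsta3 was at 335.2 and 373.1 CPM in M9 and M10 against 141.6 and 203.1 CPM in M11 and M12 (log2 fold change 1.04 ± 0.21, adjusted p = 0.0778). Gsta4 was at 712.6 and 717.9 CPM in M9 and M10 against 481.0 and 517.6 CPM in M11 and M12 (log2 fold change 0.52 ± 0.14, adjusted p = 0.145). DESeq2 called Gsta3 higher (adjusted p = 0.001004), and edgeR did so without a low-count filter (6.16e-05), without M9 (0.0126) and without M10 (0.0459), but not without M11 (0.398) or without M12 (0.221). Gsta4 was called higher by edgeR without M9 (adjusted p = 0.0438). The groups did not overlap for Gsta3 or Gsta4, and the third co-culture library had log2 differences of 1.45 for Gsta3 and 0.50 for Gsta4. For the alpha-class members Gsta1 and Gsta2, picked out after their values were seen, the groups overlapped. Their log2 fold changes were -0.01 ± 0.22 and -0.11 ± 0.66 (adjusted p = 0.987 and 0.961), with log2 differences of -0.21 and 2.07 in the third library.

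Gstm1, a mu-class GST abundant in hepatocytes, was at 23.2 and 28.2 CPM in M9 and M10 against 47.00 and 112.1 CPM in M11 and M12 (log2 fold change -1.63 ± 0.41, adjusted p = 0.121). DESeq2 called it lower (adjusted p = 0.00113), and the log2 fold change was -0.87 without M12. The third library had 380.1 CPM of it, a log2 difference of 2.298, so co-culture libraries lay on both sides of the organoids alone. The 7 Gstm genes were also summed, a choice made after the data were seen. Their sum was at 56.9 and 71.6 CPM in M9 and M10 against 82.8 and 155.4 CPM in M11 and M12. Its log2 fold change was -0.89 ± 0.32 (adjusted p = 0.230). Gstm1, Gstm5 and Gstm6 had negative fold changes, and Gstm2, Gstm3, Gstm4 and Gstm7 positive ones. Gstp1, a pi-class GST of bile duct cells, was at 295.2 and 493.4 CPM in M9 and M10 against 344.3 and 472.5 CPM in M11 and M12, and the groups overlapped (log2 fold change -0.05 ± 0.29, adjusted p = 0.957). Summed with its close copies Gstp2 and Gstp3 it was at 296.3 and 500.1 CPM in M9 and M10 against 348.1 and 476.8 CPM in M11 and M12. Gsto1, an omega-class thioltransferase, was at 1050 and 734.7 CPM in M9 and M10 against 856.8 and 825.8 CPM in M11 and M12, again with overlap (log2 fold change 0.08 ± 0.21, adjusted p = 0.883).

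None of the 11 UGTs was called by edgeR, 0 had an unadjusted p under 0.05, and DESeq2 and limma-voom called 0. Without M9 edgeR called 1 lower, Ugt2b5 (log2 fold change -3.13, adjusted p = 0.0340). Ugt1a7c, a phenol-conjugating isoform, was at 345.2 and 260.3 CPM in M9 and M10 against 264.5 and 263.3 CPM in M11 and M12 (log2 fold change 0.20 ± 0.18, adjusted p = 0.654). Ugt1a6a, which conjugates planar phenols, was at 88.3 and 64.3 CPM in M9 and M10 against 81.7 and 109.9 CPM in M11 and M12 (log2 fold change -0.33 ± 0.23, adjusted p = 0.543). Ugt1a1, which conjugates bilirubin, was at 8.97 and 2.26 CPM in M9 and M10 against 3.30 and 9.88 CPM in M11 and M12 (log2 fold change -0.23 ± 0.78, adjusted p = 0.918). Ugt2b34 was at 40.8 and 48.9 CPM in M9 and M10 against 34.4 and 46.2 CPM in M11 and M12 (log2 fold change 0.15 ± 0.21, adjusted p = 0.783). In these 4 genes the groups overlapped. Ugt1a isoforms have first exons of their own and share the others, so how reads were split between them is uncertain. Summed over 9 Ugt1a genes they were at 446.2 and 329.0 CPM in M9 and M10 against 352.9 and 387.8 CPM in M11 and M12 (log2 fold change 0.07 ± 0.19, adjusted p = 0.906).

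None of the 7 sulfotransferases was called by edgeR (3 at an unadjusted p under 0.05), while DESeq2 called 1 and limma-voom 0. M9 and M10 both lay above M11 and M12 for 5 of the 7, or 71.4%, beside 24.3% of all genes. Over all members tested they lay above for 31.1% and below for 26.2%, beside 24.3% and 25.1% of all genes. For GSTs these shares were 30% and 20%, and for UGTs 9.09% and 18.2%. Sult1c2, which sulfates phenols and is the gene DESeq2 called, was at 15.6 and 12.5 CPM in M9 and M10 against 4.52 and 6.72 CPM in M11 and M12 (log2 fold change 1.32 ± 0.32, adjusted p = 0.108). EdgeR also called it higher without a low-count filter (adjusted p = 0.00909), without M9 (0.0413) and without M10 (0.0238). Sult2b1, a cholesterol sulfotransferase of epidermis and gut, was at 12.8 and 11.5 CPM in M9 and M10 against 6.87 and 7.27 CPM in M11 and M12 (log2 fold change 0.78 ± 0.26, adjusted p = 0.202). Sult1a1, a main phenol sulfotransferase, was at 7.69 and 3.20 CPM in M9 and M10 against 1.06 and 2.74 CPM in M11 and M12 (log2 fold change 1.51 ± 0.65, adjusted p = 0.312). The log2 fold change of Sult1a1 was 0.76 without M9 and 2.35 without M12. For these 3 genes the groups did not overlap. Sult4a1, best known from brain, was at 27.2 and 15.5 CPM in M9 and M10 against 25.1 and 24.01 CPM in M11 and M12 (log2 fold change -0.20 ± 0.30, adjusted p = 0.798). Sult6b1 had 8 and 18 counts in M9 and M10 and 11 and 13 in M11 and M12 (adjusted p = 0.929), and both of these overlapped.

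The third co-culture library stood apart for these enzymes. Its log2 CPM was compared with the average of M11 and M12, without a test since its table has 1 library, and the comparison above uses those same libraries. At least 2-fold above the organoids alone were 39 of 62 members, or 62.9%, beside 12.8% of 14128 genes with the same minimum. At least 2-fold below were 7, or 11.3%, beside 17.7%. M9 had 15 members (24.2%) above and 12 (19.4%) below, beside 5.74% and 8.2% of genes. M10 had 11 (17.7%) above and 12 (19.4%) below, beside 9.07% and 10% of genes. The third library was above all 4 others for 38 members, or 61.3%, beside 30.2% of genes, and below all 4 for 11, or 17.7%, beside 35%. Its median over the members was 1.504 on the log2 scale, beside -0.05 over those genes. Hepatocyte markers also differed there, as given below.

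All 11 UGTs were at least 2-fold above the organoids alone in the third library, with a median log2 difference of 3.01. The genes named next were picked out after their values were seen. Ugt2b36, of a steroid-conjugating family, was at 137.5 CPM in the third library and 4.28 and 4.01 CPM in M9 and M10, against 2.18 and 4.65 CPM in M11 and M12. Cyp4a12a, a fatty acid hydroxylase that is predominantly male in mouse liver and kidney, was at 1119 CPM in the third library and 3.20 and 0.490 CPM in M9 and M10, against 0.311 and 0.660 CPM in M11 and M12. With its near-identical copy Cyp4a12b it summed to 1361 CPM in the third library and 9.66 and 1.10 CPM in M9 and M10, against 0.350 and 2.02 CPM in M11 and M12. Cyp4b1, a P450 of lung and kidney, was at 460.2 CPM in the third library and 16.1 and 13.5 CPM in M9 and M10, against 3.58 and 17.99 CPM in M11 and M12. Sult1a1 was at 270.7 CPM in the third library and 8.21 and 3.43 CPM in M9 and M10, against 1.13 and 2.93 CPM in M11 and M12. In each of these genes the third library was above the other 4.

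Gsto1 and Gstp1 had log2 differences of -0.98 and -0.97 in the third library, and Sult2b1 one of -1.65. Gstp2 and Gstp3, close copies of Gstp1, had log2 differences of 3.19 and 4.15. On the scale of 5 libraries the Gstp1 to Gstp3 sum was at 263.6 CPM in the third library. It was at 316.2 and 535.6 CPM in M9 and M10, against 368.7 and 509.3 CPM in M11 and M12. By superfamily the median log2 differences in the third library were 1.67 for P450s, 0.57 for GSTs and 1.29 for sulfotransferases. The sum over the 8 Ugt1a genes joined was at 1164 CPM in the third library and 476.2 and 352.4 CPM in M9 and M10, against 373.9 and 414.3 CPM in M11 and M12. How the separate table assigned reads of shared exons is not known from the labels or headers.

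The 12 hepatocyte markers summed to 269.3 and 418.7 CPM in M9 and M10 and 795.8 in the third library, against 501.1 and 526.8 in M11 and M12. At least 10 counts were found for 5 and 4 of them in M9 and M10 and 9 in the third library, against 7 and 8 in M11 and M12. Alb, the main plasma protein of hepatocytes, had 5 and 9 counts in M9 and M10 and 3847 in the third library, against 442 and 1472 in M11 and M12. Cps1, Tat and G6pc were at 0 in the third library. Ttr had 1861 and 3722 counts in M9 and M10 and 13390 in the third library, against 1023 and 1245 in M11 and M12. Apob had 5997 and 10439 in M9 and M10 and 28562 in the third library, against 11254 and 10700 in M11 and M12. Ass1 had 1225 and 791 in M9 and M10 and 174 in the third library, against 405 and 362. Fgb had 1 and 0 in M9 and M10 and 73 in the third library, against 45 and 829. These are raw counts, and the third library had the largest total. Of the 8 tested in M9 and M10 against the organoids alone, 1 (Alb) fell and none rose. The 11 mesenchymal markers summed to 1.98 and 3.04 CPM in M9 and M10 and 8.21 in the third library, against 27.3 and 82.6 in M11 and M12, with 2 of 6 tested lower. The 8 macrophage markers summed to 312.6 and 275.9 CPM in M9 and M10 and 429.8 in the third library. In M11 and M12 they summed to 681.8 and 586.3, and in each library most of the sum was Cd14. Of 4 tested 2 were lower, Cd14 and Lyz2. Cd68 and Csf1r had positive log2 fold changes of 0.79 and 0.47 that did not pass (adjusted p = 0.324 and 0.463, edgeR). Adgre1 and Clec4f were at 0 in all 5 libraries. Of the 10 cholangiocyte and progenitor markers tested 3 rose. The part of other cell types in the enzyme values was not tested.

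**Figure D4:**
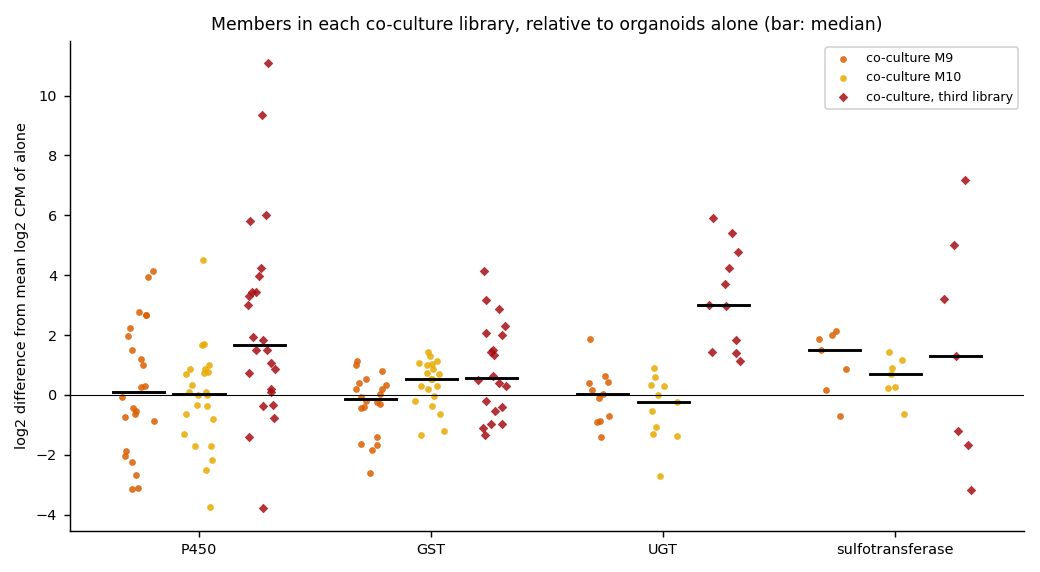
Log2 difference of each member from the average log2 CPM of M11 and M12 in M9, M10 and the third co-culture library, by superfamily, with bars at the medians. The third library has medians of 1.67 for P450s and 3.01 for UGTs, and all 3 libraries are set against the same M11 and M12.

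Of 80 other genes of the pathway in 6 lists, 69 were tested, of which 4 rose and 2 fell, or 8.70%, beside 2.24% of all genes. These counts are edgeR's, while the calls were 10 higher and 12 lower in DESeq2 and 1 higher and 1 lower in limma-voom. None of 12 regulators was called by edgeR (3 at an unadjusted p under 0.05; DESeq2 called 1 and limma-voom 0). Nfe2l2, which encodes NRF2, was at 380.1 and 343.8 CPM in M9 and M10 against 398.6 and 337.3 CPM in M11 and M12 (log2 fold change -0.02 ± 0.16, adjusted p = 0.964). Hnf4a, a hepatocyte and gut factor, was at 417.5 and 303.2 CPM in M9 and M10 against 290.0 and 297.1 CPM in M11 and M12 (log2 fold change 0.30 ± 0.19, adjusted p = 0.513). Ahr, the receptor that drives Cyp1a1, was picked out after its values were seen. It was at 40.3 and 46.2 CPM in M9 and M10 against 54.5 and 96.5 CPM in M11 and M12 (log2 fold change -0.80 ± 0.29, adjusted p = 0.233). In the third co-culture library Ahr had a log2 difference of -0.03. Nr1h4 and Keap1, the other regulators at an unadjusted p under 0.05, had log2 fold changes of 1.34 and 0.44 (adjusted p = 0.128 and 0.200).

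Of 10 NRF2 target genes 1 fell, none rose and 9 did not pass in edgeR, with a median log2 fold change of -0.43. DESeq2 called 1 higher and 2 lower of these, and edgeR without M9 called 1 higher and 4 lower. Nqo1, a quinone reductase, fell to 0.475 and 1.46 CPM in M9 and M10 against 10.1 and 14.8 CPM in M11 and M12 (log2 fold change -3.68 ± 0.60, adjusted p = 0.0459), and had a log2 difference of -4.61 in the third co-culture library. Its log2 fold change was -4.69 without M10 and -3.08 without M9. Of 9 electron donor and cosubstrate genes 1 rose. This was Papss2, which makes the sulfate donor of the sulfotransferases, at 11.9 and 12.9 CPM in M9 and M10 against 3.89 and 4.05 CPM in M11 and M12 (log2 fold change 1.64 ± 0.28, adjusted p = 0.0495). In the third library it had a log2 difference of -1.04.

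Of 21 other phase I enzymes 2 rose and 0 fell in edgeR, with 10 at an unadjusted p under 0.05. Fold changes were positive for 10 and negative for 11, and DESeq2 called 4 of the list higher and 5 lower. Just short of passing were Cbr1, Fmo2 and Aox1, picked out after their values were seen. Their log2 fold changes were 0.95, -3.48 and -4.24 (adjusted p = 0.0503, 0.0523 and 0.0557), and Fmo2 and Aox1 had few counts. Akr1c13, an aldo-keto reductase, was at 88.7 and 94.4 CPM in M9 and M10 against 21.9 and 35.3 CPM in M11 and M12 (log2 fold change 1.68 ± 0.25, adjusted p = 0.0389). Ces2a, a carboxylesterase, was at 82.4 and 62.3 CPM in M9 and M10 against 28.4 and 31.8 CPM in M11 and M12 (log2 fold change 1.27 ± 0.20, adjusted p = 0.0436). Both were also above the organoids alone in the third library, with log2 differences of 1.96 and 3.09. Of 9 other conjugating enzymes 1 rose: Mgst2, a microsomal glutathione transferase, at 17.5 and 8.86 CPM in M9 and M10 against 2.31 and 2.16 CPM in M11 and M12 (log2 fold change 2.56 ± 0.42, adjusted p = 0.0487), with a log2 difference of -0.75 in the third library. Mgst1 and Mgst3, picked out after their values were seen, did not pass. Mgst1 was at 66.6 and 42.6 CPM in M9 and M10 against 102.7 and 149.2 CPM in M11 and M12 (log2 fold change -1.21 ± 0.29, adjusted p = 0.105). In the third library Mgst1 had a log2 difference of 1.52. The log2 fold change of Mgst3 was 1.07 ± 0.32 (adjusted p = 0.167). Of 8 transporters 1 fell: Slco2b1, an organic anion importer, at 0.148 and 0.200 CPM in M9 and M10 against 1.91 and 2.02 CPM in M11 and M12 (log2 fold change -3.46 ± 0.53, adjusted p = 0.0402). The edgeR calls of the 6 genes Nqo1, Papss2, Akr1c13, Ces2a, Mgst2 and Slco2b1 were lost without M11, without M12 and with all 5 libraries. Papss2 was also lost with upper-quartile scaling (adjusted p = 0.0504). Limma-voom did not call Papss2, Ces2a, Mgst2 or Slco2b1, at adjusted p-values of 0.0560, 0.0575, 0.0821 and 0.0513.

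**Figure D5:**
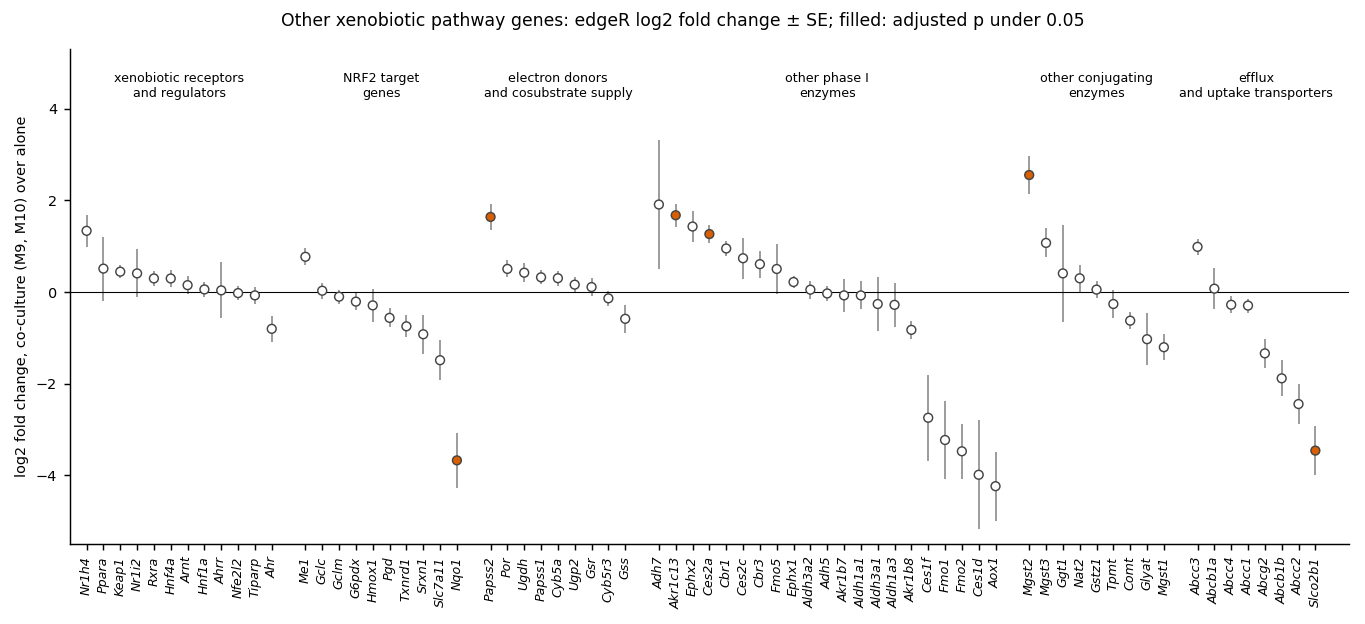
Log2 fold change of M9 and M10 over M11 and M12 with its standard error (edgeR) for 69 tested genes of 6 lists around the xenobiotic enzymes; filled points passed an adjusted p of 0.05. Papss2, Akr1c13, Ces2a and Mgst2 are the filled points above 0, and Nqo1 and Slco2b1 those below.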

How the data were processed

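Per the labels' protocols, RNA was isolated with a PicoPure kit for stranded total-RNA libraries depleted of ribosomal RNA. Tools in the submitters' processing notes, without roles, are Trimmomatic 0.38, FastQC 0.11.7, HISAT2 2.1.0, StringTie 2.1.3b and Bowtie2 2.3.4.1, with builds mm10 and GRCh37; no source used here names the counter, its use of strand or its annotation. Per the file headers, the authors deposited estimated counts per Ensembl gene for 4 libraries, of which 31.7% of expressed genes had one that was not whole (33 members), and these were rounded. A separate table by the authors gives the third library as deposited whole-number counts per RefSeq gene; its column bears another library number than the record that was followed here. Repeated rows (73925 for 52029 genes) were reduced to 1 per gene. The tables' length-scaled columns were not used: CPM per kilobase were computed from the counts and the GENCODE M21 exon union, which may not be the authors' gene models.

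The 4 libraries were fitted in R 4.3.3 by edgeR 4.0.16 (low-count filter filterByExpr, scaling by TMM, robust quasi-likelihood test), tested on simulated counts. A standard error is the size of the log2 fold change divided by the root of F. The third library was joined by symbol (30831 genes) and compared on log2 CPM with prior count 2, scaled over 5 libraries. Marker sums are per total count. Libraries of a group differed beyond counting noise (chi-square per degree of freedom 103.2 for M9 and M10 and 37.1 for M11 and M12). Alternatives were other scalings and filters, DESeq2 1.42.0, limma-voom (limma 3.58.1), all 5 libraries, each library left out and, added after seeing the data, paralogs summed. Gene positions are from GENCODE M21 (GRCm38). Named members are those called, the 4 most abundant of each superfamily, the 5 smallest p in each direction and 3 on either side of the count minimum; in pathway lists, up to 4 called genes or the 2 most abundant. Members and lists were chosen with earlier results of these data known.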

Additional observations from a re-analysis of the deposited data

How the results depend on the processing

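No paired analysis was possible because the columns carry library numbers and not the replicate numbers of the labels. EdgeR called 356 genes in all. With 1 library left out the count ran from 0 to 2619: 50 without M11, 2619 without M9, 1114 without M10 and 0 without M12 (1438 genes at an unadjusted p under 0.05). It was 1404 without a low-count filter and 2 with all 5 libraries, and DESeq2 called 1323. Members called numbered 0 to 6 higher and 0 to 6 lower with 1 library left out. They were 6 and 6 without M9, 6 and 4 without M10, and 0 and 0 without M11 and without M12 (10 and 15 members at an unadjusted p under 0.05). They were 4 and 3 without a low-count filter, 0 and 0 with all 5 libraries (10 at an unadjusted p under 0.05), 5 and 4 in DESeq2, and 0 and 1 in limma-voom (18 at an unadjusted p under 0.05). With paralogs summed 2 were lower. Other pathway genes called numbered 0 to 10 higher and 0 to 13 lower with 1 library left out, 10 and 12 without a low-count filter, 0 and 0 with all 5 libraries (17 at an unadjusted p under 0.05), 10 and 12 in DESeq2 and 1 and 1 in limma-voom. The cause was not tested. A fit with 1 library left out assumes that the lone library varies like the other group.

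Signs turned for 11 of the named genes. EdgeR on the 4 libraries called none of these, while DESeq2 called Gstm1 and Cyp2d10, and edgeR called Cyp2d10 without M9, without M10 and without a low-count filter. With all 5 libraries the log2 fold changes were 0.80 for Gstm1, -0.18 for Gsto1, 0.41 for Cyp2d10, 2.63 for Ugt1a1 and 0.52 for Ugt1a6a. With 1 library left out they ran from -0.18 to 0.32 for Gsto1, -0.46 to 0.29 for Gstp1, -1.53 to 0.76 for Ugt1a1, -0.00812 to 0.39 for Ugt1a7c, -0.0354 to 0.38 for Ugt2b34, -0.65 to 0.15 for Sult4a1, -0.82 to 0.28 for Sult6b1 and -0.14 to 0.11 for Nfe2l2. In the third library 39 members were at least 2-fold higher under each scaling and prior count tried, and 6 in place of 7 were lower without TMM.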
